A study of Danio rerio with 6 samples.

Results

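The 6 genes described here, keap1a, keap1b, bach1, nfe2l1a, sqstm1 and osgn1, encode regulators and feedback genes of the Keap1-Nrf2 response to oxidants. They were picked by symbol from a deposited table of 670 zebrafish genes, and each symbol matched 1 row. The study sequenced polyadenylated RNA from pools of whole larvae of nacre, a strain without melanophores, in 6 libraries, 3 of them untreated and 3 from larvae kept in water with 3 mM H2O2. The pools of the 3 biological replicates were raised separately, and whether an untreated and a treated library of the same number came from the same pool is not stated. The labels put the larvae at 3 days post fertilization and the treatment at 2 hours, whereas the methods of the study state 4 days and 3 hours, and the files do not settle which holds. The methods also state that larvae were anesthetized in tricaine and treated, but not whether the untreated larvae were anesthetized too. If they were not, tricaine and H2O2 cannot be told apart. By the methods the 6 barcoded libraries shared a single sequencing lane, so no sequencing batch separates the groups. In RNA from whole larvae, a change in the number of cells of a type and a change in RNA per cell cannot be told apart.

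In vertebrate cells the transcription factor Nrf2 turns on antioxidant and detoxification genes through antioxidant response elements in their promoters. Keap1 is the substrate adaptor of a Cullin 3 ubiquitin ligase that marks Nrf2 for destruction, and oxidation of its cysteines lets Nrf2 accumulate. Bach1 is a heme-binding repressor that occupies the same elements, Nrf1 is a related activator anchored in the endoplasmic reticulum, and the autophagy receptor p62 takes Keap1 away from Nrf2. In mammals the p62 gene is itself a target of Nrf2, which makes it part of a feedback loop. Zebrafish carry a pair of Keap1 genes, keap1a and keap1b.

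The table had been limited by the authors to genes that differed between these same libraries, at p under 0.05 in their test and with a mean log2 CPM above 1. CPM is the read count of a gene scaled to the depth of its library. That a gene stands in it is therefore no finding, and the treatment differences below are descriptions. Values are log2(CPM + 1) as deposited, differences are the mean of the treated libraries minus the mean of the untreated ones on that scale, and the error of a difference is the standard error (SE) from a limma fit to all 670 genes. Its p-values were adjusted for 24050 tests, the number of genes that the study counted as expressed. Genes outside the 670 were not fitted and were counted as having larger p-values. The p-values measure only the spread between these pools of larvae. In the fit the variance of each gene was drawn towards those of the 670 selected genes. The SEs and p-values may therefore be too small. The step between neighbouring values implied 31811527, 39766947 and 33145488 reads in untreated libraries 1, 2 and 3. In treated libraries 1, 2 and 3 it implied 30301558, 30400463 and 24727594 reads. All treated libraries were thus shallower than all untreated ones, and treated library 3 was the shallowest. The part of depth in the levels below was not tested. Of the 670 genes, 414 were higher and 256 lower in treated larvae.

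All 6 genes stood higher in treated larvae, and in each case the lowest treated value exceeded the highest untreated value. The same separation was found in 391 of the 414 higher genes, or 58.4% of the whole table, so it does not set the 6 apart. The differences ran from 0.42 for nfe2l1a to 1.21 for sqstm1, with a median of 0.89, beside a median of 0.47 and quartiles of 0.41 and 0.60 over the 414 higher genes. Of the 6, 5 exceeded that median, all but nfe2l1a. None of the 6 passed an adjusted p of 0.05 in limma, where 0 of the 670 genes did (0.0%). All 6 were under 0.05 before adjustment, as were 372 of the 414 higher genes (55.5% of the table) and 253 of the 256 lower genes (37.8%). When the adjustment counted only the genes of the table, all 6 passed, and so did 365 of the 414 higher genes (54.5% of the table).

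**Figure D1:**
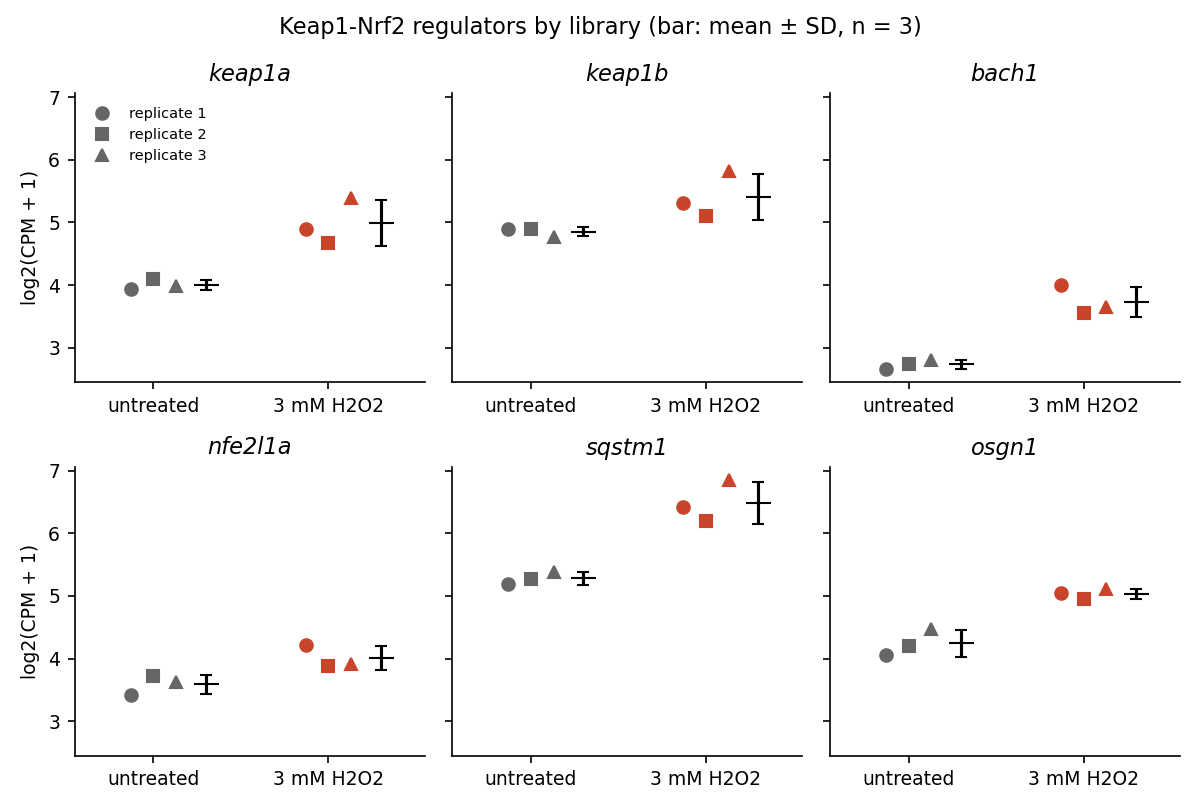
Each panel plots log2(CPM + 1) of 1 gene in the 3 untreated (grey) and the 3 treated (red) libraries, with the replicate number as the symbol and the mean ± SD (n = 3) beside the points. In every panel the treated points lie above the untreated ones, most closely for nfe2l1a, where the lowest treated library exceeds the highest untreated one by 0.16.

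The keap1a gene (ENSDARG00000016132, Zv9 chromosome 2, 41936143 to 41962158, minus strand) encodes 1 of the Keap1 adaptors. Its level was 3.93, 4.09 and 3.99 in the untreated libraries and 4.90, 4.67 and 5.39 in the treated ones. The groups did not overlap, the untreated libraries lay within 0.16 of each other, and treated library 3 was the highest. The mean was 4.003 ± 0.08 (SD, n = 3) before and 4.99 ± 0.37 (SD, n = 3) after treatment, a difference of 0.98 (SE 0.18, adjusted p = 0.264 from limma). In CPM the means were 15.1 ± 0.915 and 31.4 ± 8.51 (SD, n = 3), a ratio of 2.08. Leaving out each library in turn gave differences between 0.78 and 1.14.

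The keap1b gene (ENSDARG00000074634, Zv9 chromosome 6, 66888 to 73493, minus strand) encodes the other adaptor. Its level was 4.90, 4.90 and 4.77 in the untreated libraries and 5.30, 5.11 and 5.82 in the treated ones. The groups did not overlap, but treated library 2 lay only 0.21 above the highest untreated library. The mean was 4.85 ± 0.08 (SD, n = 3) before and 5.41 ± 0.37 (SD, n = 3) after treatment, a difference of 0.55 (SE 0.18, adjusted p = 0.909 from limma). In CPM the means were 28.0 ± 1.51 and 42.4 ± 11.5 (SD, n = 3), a ratio of 1.52. Leaving out each library in turn gave differences between 0.35, without treated library 3, and 0.71, without treated library 2. Without treated library 3 the difference of keap1a fell too, from 0.98 to 0.78.

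The pair was compared within libraries, as the log2(CPM + 1) value of keap1a minus that of keap1b. This measure was −0.97, −0.81 and −0.78 in the untreated libraries and −0.41, −0.44 and −0.43 in the treated ones. The groups did not overlap, and the treated libraries were nearly identical although each gene alone spread by about 0.71 to 0.72 over them. The mean was −0.85 ± 0.10 in untreated and −0.42 ± 0.01 in treated larvae (SD, n = 3), so the difference of keap1a exceeded that of keap1b by 0.43. An exact permutation test over the 20 assignments of the libraries gave p = 0.1 (two-sided), which is the smallest p that 3 against 3 libraries allow. Leaving out each library in turn gave 0.37 to 0.46, so that no single library set the size of this value.

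Expressed as reads, keap1a made up 33.0% (95% exact binomial interval 30.6 to 35.6), 35.8% (33.6 to 38.1) and 36.2% (33.6 to 38.8) of the reads of the pair in the untreated libraries. In the treated libraries the share of keap1a was 42.8% (40.6 to 45.0), 42.2% (39.9 to 44.6) and 42.5% (40.5 to 44.5). Every treated interval lay above every untreated interval. The mean share was 35.0% ± 1.71 and 42.5% ± 0.270 (SD, n = 3), 7.50 percentage points apart, with the same exact permutation p of 0.1 (two-sided). The intervals cover counting error only, and a share of reads also depends on transcript length, which is the same in both groups for a fixed set of transcripts. The deposited values stand for whole reads and do not show how reads that match both genes were counted. How many such reads there were was not tested.

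**Figure D2:**
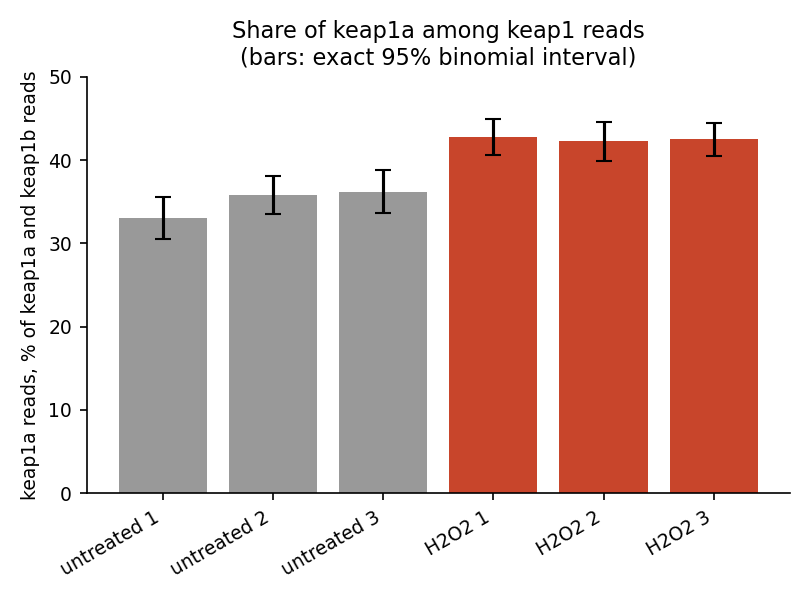
Bars give the reads of keap1a as a percentage of the reads of keap1a and keap1b in each library, untreated in grey and treated in red, with exact 95% binomial intervals for counting error. The treated libraries stand at 42.2% to 42.8%, above the untreated libraries at 33.0% to 36.2%.

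Summed over the pair, Keap1 transcripts were at 43.0 ± 1.87 CPM (SD, n = 3) in untreated larvae, with a range of 41.1 to 44.8. In treated larvae the sum was 73.8 ± 19.98 CPM (SD, n = 3), with a range of 57.9 to 96.2 and a ratio of means of 1.72. The summed level thus varied widely among treated pools, while their shares of keap1a lay within each other's counting intervals. Given that counting error, the closeness of 3 shares cannot show that the share is constant between pools.

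Gene pairs whose symbols differ only by a final a or b were taken from the table as a comparison, which was chosen after values had been seen. The table held 16 such pairs, 7 with both genes higher, 6 with both lower and 3 with opposite directions. The within-library difference separated the groups in 6 of the 16 pairs (37.5%), among them keap1a and keap1b. Among the 7 pairs with both genes higher, the Keap1 pair was the only pair with this separation. Its difference of 0.43 compares with an absolute value of 0.17 for the next pair, the amino acid transporter genes slc43a2a and slc43a2b, and of 0.03 for the smallest. Of the 13 pairs with the same direction, 3 separated the groups, and 2 of these had a larger absolute value than the Keap1 pair. They were serpinh1a and serpinh1b at 1.12 and nfkbiaa and nfkbiab at 0.73, with both genes lower in each. Over all 16 pairs the Keap1 pair ranked sixth, with a median absolute value of 0.15 and a range of 0.02 to 1.74.

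**Figure D3:**
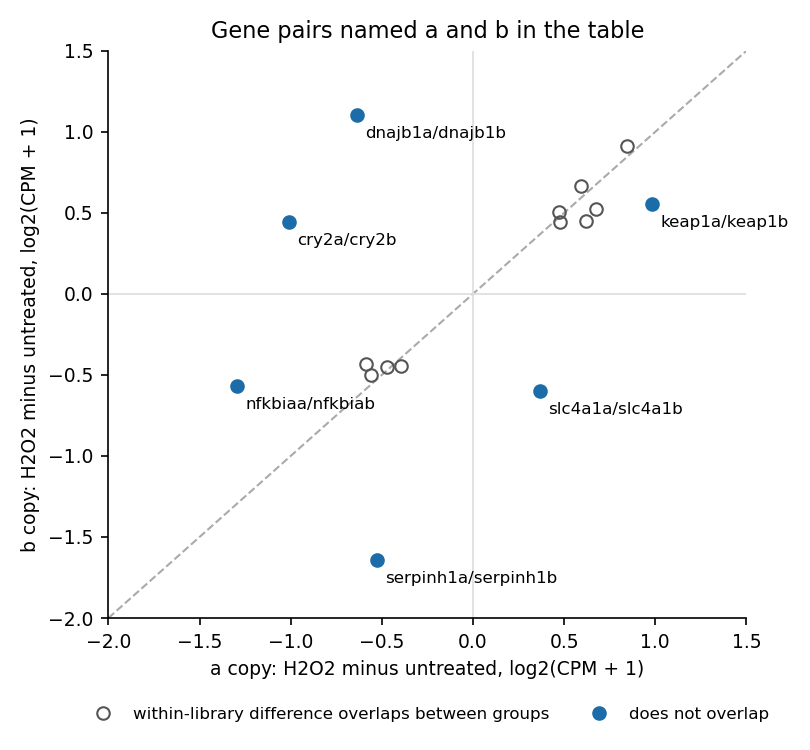
Each of the 16 points is a pair of genes named a and b, with the treatment difference of the a copy on the horizontal and of the b copy on the vertical axis, both in log2(CPM + 1). Filled points are the 6 pairs whose within-library difference does not overlap between the groups, and the pair keap1a and keap1b, at 0.98 and 0.55, is the filled point among the pairs with both genes higher.

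The bach1 gene (ENSDARG00000002196, Zv9 chromosome 10, 26004029 to 26016671, plus strand) encodes the heme-binding repressor. Its level was 2.66, 2.74 and 2.80 in the untreated libraries and 3.998, 3.56 and 3.64 in the treated ones. Here treated library 1 was the highest, and the lowest treated library still lay 0.75 above the highest untreated one. The mean was 2.73 ± 0.07 (SD, n = 3) before and 3.73 ± 0.23 (SD, n = 3) after treatment, a difference of 1.00 (SE 0.15, adjusted p = 0.101 from limma). In CPM the means were 5.66 ± 0.331 and 12.4 ± 2.26 (SD, n = 3), a ratio of 2.19. This was the most thinly covered of the 6 genes, with 169 reads in untreated library 1, where counting error alone allows 15.4% on either side of the CPM. Without any 1 library the difference of bach1 stayed between 0.87 and 1.09.

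The nfe2l1a gene (ENSDARG00000030616, Zv9 chromosome 3, 24362911 to 24384385, minus strand) encodes an Nrf1, which in mammals raises proteasome subunit genes when proteasome activity is low. Its level was 3.41, 3.72 and 3.63 in the untreated libraries and 4.22, 3.88 and 3.91 in the treated ones. Treated libraries 2 and 3 lay only just above the highest untreated library, the nearer of them by 0.16. The mean was 3.59 ± 0.16 (SD, n = 3) before and 4.005 ± 0.19 (SD, n = 3) after treatment, a difference of 0.42 (SE 0.15, adjusted p = 1 from limma). In CPM the means were 11.1 ± 1.29 and 15.1 ± 2.21 (SD, n = 3), a ratio of 1.37, the smallest among the 6 genes. The difference was between 0.31 and 0.48 when each library was left out. The study states that no nfe2 gene, nfe2l1a among them, changed significantly with H2O2, although the deposited table kept it at p under 0.05.

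Between these transcription factor genes, the level of bach1 minus that of nfe2l1a was −0.75, −0.98 and −0.83 in untreated and −0.23, −0.32 and −0.27 in treated libraries. The groups did not overlap, and the difference of the repressor gene exceeded that of the activator gene by 0.58 (exact permutation p = 0.1, two-sided). As with the Keap1 pair, the treated libraries were close together on this measure, at an SD of 0.05 against 0.11 in the untreated ones. Counting error alone allows 8.56% to 11.8% on either side of the CPM of these genes in treated libraries. The closeness therefore says nothing of a tighter relation after treatment.

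The sqstm1 gene (ENSDARG00000075014, Zv9 chromosome 14, 14448389 to 14453802, plus strand) encodes p62. Its level was 5.19, 5.26 and 5.39 in the untreated libraries and 6.41, 6.19 and 6.85 in the treated ones. All treated libraries lay at least 0.80 above all untreated ones, the widest gap among the 6 genes. The mean was 5.28 ± 0.10 (SD, n = 3) before and 6.49 ± 0.34 (SD, n = 3) after treatment, a difference of 1.21 (SE 0.18, adjusted p = 0.101 from limma). In CPM the means were 37.9 ± 2.79 and 90.2 ± 21.8 (SD, n = 3), a ratio of 2.38. Among the 414 higher genes, ordered by the size of the difference, sqstm1 stood at position 19, bach1 at 33, keap1a at 36, osgn1 at 57, keap1b at 142 and nfe2l1a at 298. The order of bach1 and keap1a turned with 5 in place of 1 added to the CPM, at differences of 0.70 and 0.84.

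The osgn1 gene (ENSDARG00000052279, Zv9 chromosome 6, 50645618 to 50655992, minus strand) encodes the oxidative stress induced growth inhibitor. Its level was 4.05, 4.21 and 4.48 in the untreated libraries and 5.05, 4.95 and 5.11 in the treated ones. Unlike in the other 5 genes, the treated libraries were closer together than the untreated ones. The mean was 4.25 ± 0.21 (SD, n = 3) before and 5.04 ± 0.08 (SD, n = 3) after treatment, a difference of 0.79 (SE 0.14, adjusted p = 0.226 from limma). In CPM the means were 18.1 ± 2.88 and 31.9 ± 1.83 (SD, n = 3), a ratio of 1.76. The difference was between 0.70 and 0.91 when each library was left out.

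The 6 genes did not share a single order of the treated libraries. Treated library 3 was the highest for keap1a, keap1b, sqstm1 and osgn1, as for 316 of the 414 higher genes (76.3%). Treated library 1 was the highest for bach1 and nfe2l1a, as for 69 of the higher genes (16.7%). Treated library 2 was the lowest for all 6, and for 260 of the higher genes (62.8%). Above the untreated mean, nfe2l1a stood at 0.64, 0.29 and 0.33 in treated libraries 1, 2 and 3, where the median of the higher genes was 0.42, 0.34 and 0.72. It was thus above the median gene in the first of these libraries and below it in the others. The keap1b gene stood at 0.45, 0.25 and 0.96, within the quartiles in treated libraries 1 and 2 and just above the upper quartile in treated library 3. In turn, sqstm1, at 1.14, 0.91 and 1.57, lay above the upper quartile of 0.61, 0.52 and 0.95 in each library. The level of keap1a, at 0.89, 0.67 and 1.39 above its untreated mean, did so as well.

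**Figure D4:**
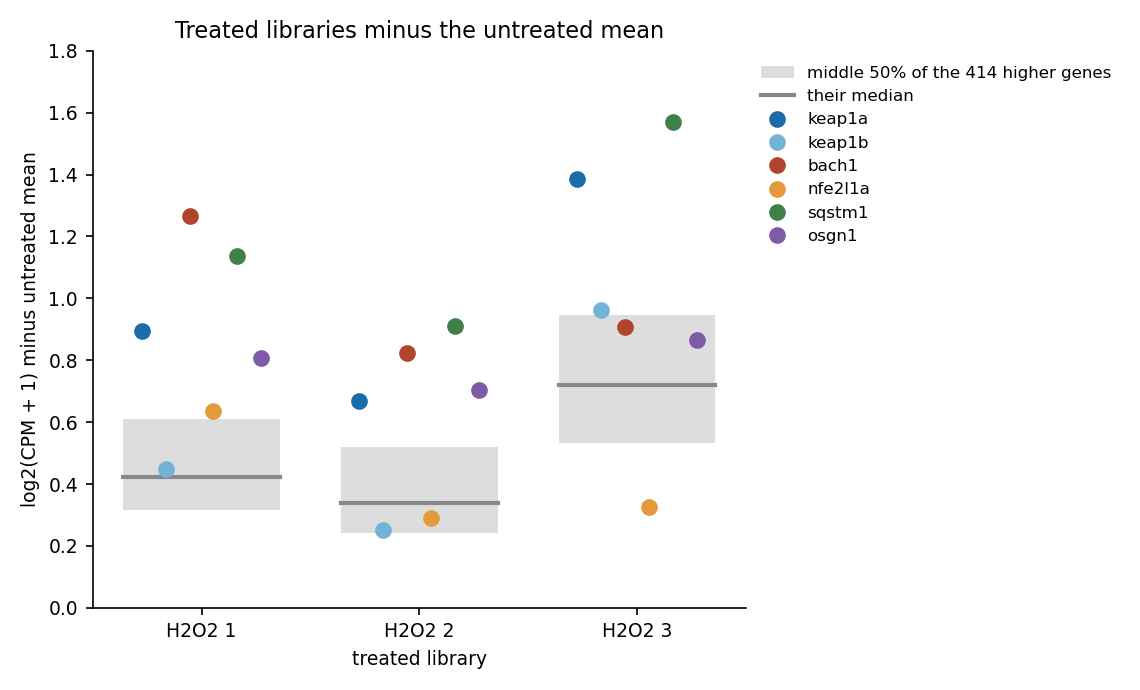
Points give log2(CPM + 1) of each of the 6 genes in each treated library minus the untreated mean of that gene. Grey boxes span the quartiles of the 414 higher genes and grey lines their medians of 0.42, 0.34 and 0.72, and nfe2l1a moves from above the box in library 1 to below it in library 3.

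The summed levels of genes on the marker lists of other cells were highest in treated library 3 too. The leukocyte list had 2 of 29 symbols in the table, the metalloproteinase genes mmp9 and mmp13a. They summed to 14.0 to 18.5 CPM in untreated libraries and to 47.8, 36.1 and 136 CPM in treated libraries 1, 2 and 3. The study describes mouse Mmp13 as raised at the front of migrating keratinocytes. Which cells of these larvae the reads of this sum came from was not tested. The number of leukocytes was not tested. The erythrocyte list had 2 of 23, the alpha globin gene hbae1, whose groups overlapped, and the band 3 gene slc4a1a, with sums of 430 to 548 CPM and of 504, 581 and 1201 CPM. The liver list had 3 of 27, pck1, cp and g6pca.1, with sums of 182 to 193 CPM and of 263, 244 and 436 CPM, although g6pca.1 itself was lowest in treated library 3, at 3.25, 3.08 and 3.08 log2(CPM + 1) in treated libraries 1, 2 and 3. None of the 26 keratinocyte symbols stood in the table. The integrin genes itgb4 and itga6b, which were not on that list, differed by 1.09 and 0.95 and were highest in treated library 3. The study reports ITGB4 raised by H2O2 in a human keratinocyte line. The table holds only selected genes, so these lists do not check the tissue. The part of leukocytes, erythrocytes, liver cells and keratinocytes in the levels of keap1a, keap1b, sqstm1 and osgn1 was not tested. Without treated library 3 the differences were 0.78 for keap1a, 0.35 for keap1b, 1.02 for sqstm1 and 0.76 for osgn1.

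Over the 15 pairs of the 6 genes, the within-library difference separated the groups in 7, beside 21.5% of all 85491 pairs of higher genes. The pairs share genes and libraries, and 3 against 3 libraries cannot give an exact p below 0.1. After Benjamini-Hochberg adjustment over the 15 pairs, the exact permutation p was 0.214 for each of the 7. The 7 were keap1a against keap1b and against nfe2l1a, bach1 against nfe2l1a, and sqstm1 against keap1a, keap1b, nfe2l1a and osgn1. The treatment difference of sqstm1 exceeded that of nfe2l1a by 0.79, of keap1b by 0.65, of osgn1 by 0.41 and of keap1a by 0.22. The level of sqstm1 minus that of keap1a was 1.26, 1.17 and 1.40 in untreated and 1.52, 1.52 and 1.46 in treated libraries, close to each other but without overlap. By contrast, bach1 minus keap1a gave a difference of 0.02, with treated libraries at −0.90, −1.12 and −1.75. The sign of this difference turned with 5 in place of 1 added to the CPM. The highest treated library was 1 for bach1 and 3 for keap1a.

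Likeness was also measured as the root mean square distance between the 6 values of a pair of genes, each value taken relative to the untreated mean of its gene, in log2(CPM + 1). Among the 6 genes, keap1a and sqstm1 were the closest at 0.17, bach1 and osgn1 followed at 0.21, keap1a and keap1b stood at 0.31, and nfe2l1a and sqstm1 were the farthest apart at 0.61. Over the whole table the nearest gene to keap1a was itga6b, an integrin subunit gene, at 0.05, followed by CR391991.1, annotated as a period homolog of the circadian clock, at 0.08. Nearest to keap1b were azin1a, which encodes an antizyme inhibitor, at 0.04, and the phosphodiesterase gene pde8a at 0.06. The gene nearest to nfe2l1a was gclm, which encodes the modifier subunit of the enzyme that starts glutathione synthesis and is an Nrf2 target in mammals, at 0.06, and then CU638740.1, annotated as a retinol dehydrogenase, at 0.07. For bach1 the nearest genes were zgc:162608 and the Hsp40 co-chaperone gene dnajb1b, both at 0.12. For sqstm1 they were the integrin subunit gene itgb4 and zgc:109934, annotated as a ferritin heavy chain, both at 0.12. For osgn1 the nearest gene was CR391986.1, of unknown family, at 0.10. These distances describe 6 libraries and say nothing of shared control.

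The other genes of the pathway were taken from 7 lists, which were chosen with earlier results of these data known. Counts over them are descriptions only. These lists hold few symbols of the table, 14 gene models in all, and each of the 14 was higher in treated larvae and below an unadjusted p of 0.05, while none passed the adjusted threshold in limma. Of the whole table, itself selected on this contrast, 55.5% were higher below that unadjusted p, which is 372 of its 414 higher genes. The adjusted threshold was passed by 0.0% of the table. Absence from the table says only that a gene was not kept by the selection. Of 27 symbols for Nrf, Bach, small Maf and Keap1 ligase genes besides the 6, only maff stood in the table. This small Maf gene, whose mammalian product pairs with Nrf and Bach proteins on DNA, was at 4.30, 4.29 and 4.35 in untreated and at 4.93, 4.85 and 4.42 in treated libraries. The groups did not overlap, with a difference of 0.42 (SE 0.15), and among the treated libraries maff was lowest in treated library 3, where keap1a, keap1b, sqstm1 and osgn1 were highest. The Nrf2 genes nfe2l2a and nfe2l2b were not analysed here.

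The heme and iron list, which includes genes that Bach1 represses in mammals, had 5 of 34 symbols in the table, all of them higher. Their median difference was 0.91, beside 0.47 over the 414 higher genes and 0.40 over all 670 genes. The ferritin model zgc:109934 differed by 1.20 (SE 0.13, adjusted p = 0.0675 from limma), hebp2, which encodes a heme-binding protein, by 1.03 (SE 0.12), and abcb6a, a porphyrin transporter gene, by 0.91 (SE 0.14). For hmox1, the heme oxygenase gene that Bach1 represses in mammals, the levels were 3.77, 3.92 and 3.77 in untreated and 4.54, 4.54 and 4.65 in treated libraries, with a difference of 0.76 (SE 0.12). Both groups of hmox1 were tight and did not overlap. The ceruloplasmin gene cp, which is on the liver list too, had a difference of 0.55 (SE 0.22).

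Genes of glutathione and thioredoxin metabolism gave 3 of 52 symbols, sesn2, gclm and prdx1, at differences of 0.48 (SE 0.15), 0.44 (SE 0.12) and 0.37 (SE 0.13). These encode a sestrin, the glutamate-cysteine ligase modifier and a peroxiredoxin. The list of quinone and NADPH enzymes gave 1 of 27, the pirin gene pir, at 0.38 (SE 0.15), and the export transporters gave 2 of 15, abcc4 at 0.52 (SE 0.17) and ABCC1 at 0.48 (SE 0.13). All 6 of these genes lay below the differences of sqstm1, bach1, keap1a, osgn1 and keap1b in size. Among 56 autophagy receptors and p62 partners the table held traf6, a ubiquitin ligase gene whose mammalian product binds p62, at 8.05, 6.49 and 7.15 CPM in untreated and 10.99, 9.57 and 9.50 CPM in treated libraries. Its difference was 0.42 (SE 0.13), beside 1.21 for sqstm1 itself. Among 73 proteasome and Nrf1-processing genes the table held the polyubiquitin gene UBB, at 0.62 (SE 0.20) and highest in treated library 3, beside 0.42 for nfe2l1a.

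**Figure D5:**
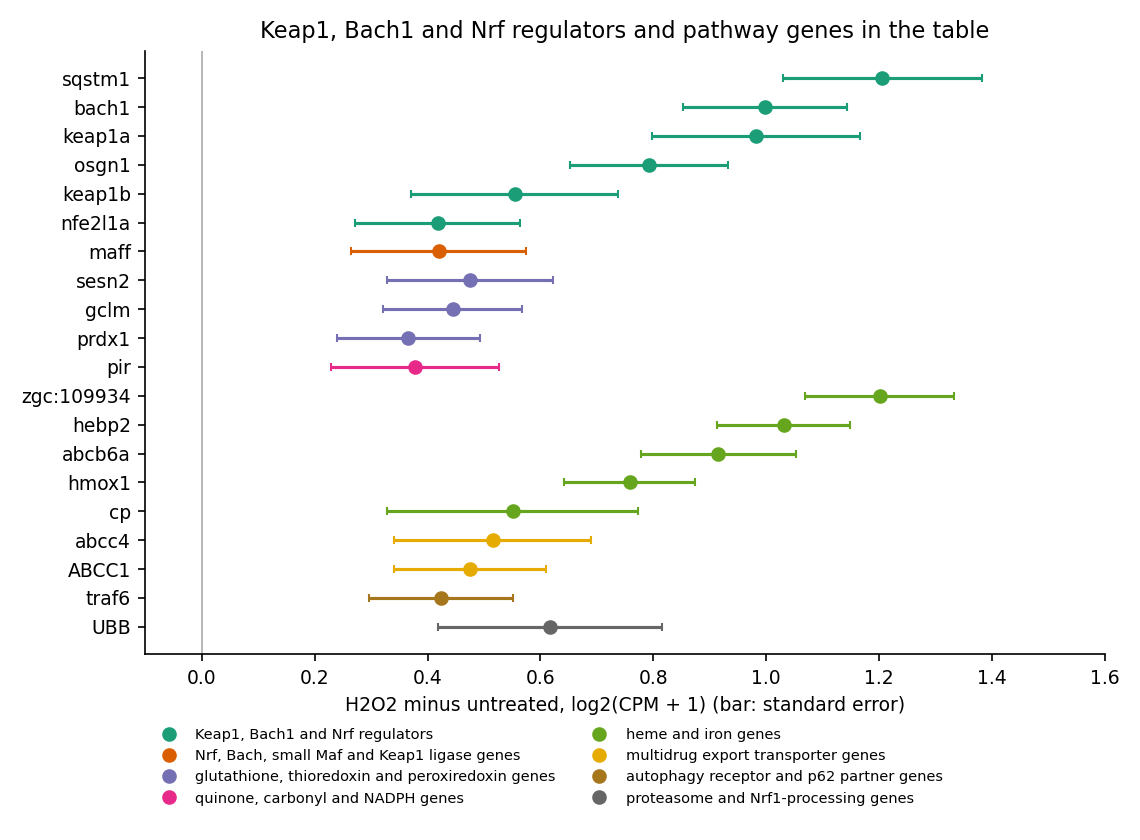
Points give the treatment difference in log2(CPM + 1) and bars its standard error for the 6 genes and for the 14 gene models of the 7 pathway lists, coloured by list. All lie above 0, and sqstm1 at 1.21, zgc:109934 at 1.20 and hebp2 at 1.03 have the largest differences.

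The position of keap1b near the end of chromosome 6 was looked at after the values had been seen. Within 100000 bases of it on Zv9 the table held 3 other genes, none of which overlaps it, whereas it held none within that distance of the other 5 genes. The methyl-CpG-binding domain gene mbd5 lies 52939 bases away and differed by 0.43 (SE 0.17), the clathrin adaptor subunit gene AP1M2 (1 of 2) lies 12418 bases away and differed by 0.84 (SE 0.18), and the ferredoxin-like gene fdx1l lies 10821 bases away and differed by 0.43 (SE 0.15). In all 3, as in keap1b, the groups did not overlap and treated library 3 was the highest. Treated libraries all lay above untreated ones in 391 of the 414 higher genes (58.4% of the table). In 76.3% of the higher genes treated library 3 was the highest. At least 3 other genes within this distance were found for 15 of the 670 genes (2.24%), and none for 521 of them (77.8%). The 15 include keap1b and these 3 neighbours.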

How the data were processed

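The authors trimmed the reads, aligned them to Ensembl transcripts of the Zv9 assembly, quantified them with RSEM and tested them with edgeR. The submitters' processing notes also name FastQC, TopHat, Bowtie2 2.0.9, Cufflinks and Cuffdiff. The deposited table holds log2(CPM + 1) per library, with the pseudocount of 1 added by the authors. It also holds the authors' log2 fold change, mean log2 CPM, p-value and FDR, which were not used. With the implied totals, all deposited values were whole reads within 0.02, and the smallest nonzero value of a library stood for 13 to 35 reads. Counts exist only for the selected genes, so no count model was run. Coordinates are those of the deposited table.

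A linear model of treatment was fitted to the 6 libraries and 670 genes with limma 3.58.1 (R 4.3.3), with moderated variances (prior degrees of freedom 4.40), two-sided p-values and Benjamini-Hochberg adjustment over 24050 tests at a threshold of 0.05. The script was tested on simulated data. Exact permutation tests and binomial intervals came from scipy 1.17.1. The 6 genes, the 7 pathway lists, the 4 marker lists and the tests were chosen with earlier results of these data known. Named genes were the 6 genes, the 3 models with the largest absolute difference of each list and the 2 nearest genes of each of the 6, except that 1 of these is not reported here. The other genes that are named were chosen after their values had been seen. List symbols were matched to the deposited table alone. Columns were matched to libraries by group and number. The alternatives were another number of tests, a mean-variance trend, robust moderation, pseudocounts of 0.1 and 5, a mean of at least 3, a replicate block and leaving out each library.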

Additional observations from a re-analysis of the deposited data

How the results depend on the processing

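With the adjustment over the table alone, 6 of the 6 genes passed in limma instead of 0, at unchanged differences of 0.98 for keap1a, 0.55 for keap1b, 1.00 for bach1, 0.42 for nfe2l1a, 1.21 for sqstm1 and 0.79 for osgn1, and so did 19 of the 20 list models. The table had been selected on the same contrast, so these calls follow from fewer tests counted. Replicate numbers showed no pairing across the genes of the table, where deviations of same-numbered libraries correlated at −0.00137, −0.105 and −9.64e-05. No untreated library correlated best with the treated one of its number. Because these genes were selected on the same contrast, the check cannot exclude that same-numbered libraries were paired. With the number as a replicate block, 4 genes passed at the same differences (adjusted p from limma 0.00907 for keap1a at 0.98, 0.00522 for bach1 at 1.00, 0.000517 for sqstm1 at 1.21 and 0.0473 for osgn1 at 0.79), and 51 higher and 20 lower genes of the table against 0 and 0, with prior degrees of freedom of 22.4 in place of 4.40. For the Keap1 pair the block cannot move the difference of 0.43, and its exact sign-flip p was 0.25, the smallest that 3 pairs allow, in place of an exact permutation p of 0.1. With a trend, robust moderation, the other pseudocounts or the filter on the mean, none of the 6 genes passed the threshold. A trend, robust moderation and the filter cannot change a difference. A pseudocount cannot turn the direction where the groups do not overlap. At pseudocounts of 5 and 0.1 the difference was 0.70 and 1.11 for bach1, and 0.34 and 0.45 for the Keap1 pair. Leaving out a library gave 0 to 0 of the 6 genes past the threshold, with lowest adjusted p from limma of 0.0693 for sqstm1, 0.0879 for keap1a and 0.0935 for bach1, and 7 to 10 separated pairs of the 15. Over the whole table, 9 higher genes passed without treated library 2 and 1 lower gene without treated library 3. The planned edgeR test on recovered reads was not run, because reads exist only for genes selected on this contrast. The half-width of the counting interval in a library reached 15.4% of the CPM for bach1 and was as low as 3.70% for sqstm1.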
